A study of Rattus norvegicus with 6 samples.

Results

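The interleukin-1 (IL-1) axis and the inflammasome were followed through 10 genes in rat RA-FLS, the fibroblast-like synoviocytes that line a joint affected by rheumatoid arthritis. The genes were taken by name from the deposited count table, which holds 34156 genes, and all 10 were found: Il1a, Il1b, Il33, Il18, Il1rn, Il1r1, Il1rap, Il1rl1, Casp1 and Nlrp3. The libraries came from 3 samples labelled TNF-a, given TNF-α at 10 ng/ml (called TNF-α), and 3 labelled TNF-a + emodin, given 10 ng/ml TNF-α together with 80 μmol/L emodin, an anthraquinone of rhubarb (called TNF-α+EMO). Both groups were wild-type by their labels, both carried TNF-α, and no untreated or emodin-only cells were analysed here. The labels give day 5 as the time, whereas the study's methods give a shorter incubation. The cells were bought from a cell bank. The study's methods call the 3 samples of a group biological replicates, but no label says that they were separate cultures, so the p-values measure the spread between these samples, which may be technical.

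IL-1 cytokines are alarm signals of damaged or infected tissue. IL-1α and IL-1β bind the receptor IL-1R1, which then recruits the accessory protein encoded by Il1rap and starts NF-κB and MAP kinase signalling, and the antagonist encoded by Il1rn occupies the same receptor without signalling. IL-33 uses a sister receptor, ST2 (Il1rl1), with the same accessory chain, and IL-18 uses a receptor pair of its own. IL-1β and IL-18 are made as precursors that caspase-1 cuts once a sensor such as NLRP3 has assembled an inflammasome. In the joint, synovial fibroblasts are known both as producers of IL-33 and as responders to IL-1.

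With EMO, RNA of Il1a, Il1b, Il33, Il18 and the antagonist gene Il1rn was at the limit of detection, RNA of the receptors and of caspase-1 was lower but still measured, and Nlrp3 RNA was higher than with TNF-α alone. The libraries held between 16813322 and 17794455 counts. The third TNF-α+EMO replicate stood apart from its group, with a mean chi-square per gene of 25.2 and 16.1 against the first and the second, where those differed by 6.63 and the TNF-α pairs by 4.72 to 5.85. Without it, the 8 tested genes described here kept their calls and directions, with a log2 fold change of -1.48 for Il1rap, -2.87 for Il1r1, -2.80 for Il1rl1, -4.20 for Casp1 and 1.16 for Nlrp3. edgeR's quasi-likelihood test was run on the 13614 genes that reached 10 counts in 3 or more libraries. A gene counted as a DEG when its Benjamini-Hochberg adjusted p was below 0.05 and its log2 fold change (log2 FC, TNF-α+EMO over TNF-α, given with its standard error, SE) was beyond 1 in either direction. Of the 10 genes, 8 were tested and all 8 were DEGs, 7 lower and 1 higher, in a comparison in which 47.3% of all tested genes were DEGs (27.8% lower and 19.5% higher) and 80.9% passed the adjusted p alone. In all 8 tested genes the libraries of the groups did not overlap, as in 82.9% of all tested genes. Only Il1r1, Il1rap, Casp1 and Nlrp3 reached 10 counts in every library of both groups. Il1a, Il1rn, Il1rl1 and Il33 passed the filter through the TNF-α libraries alone, so the filter favoured a lower value with EMO in them. Il1b and Il18 were too low to be tested. Bulk counts cannot tell fewer cells of a type from less RNA per cell.

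**Figure D1:**
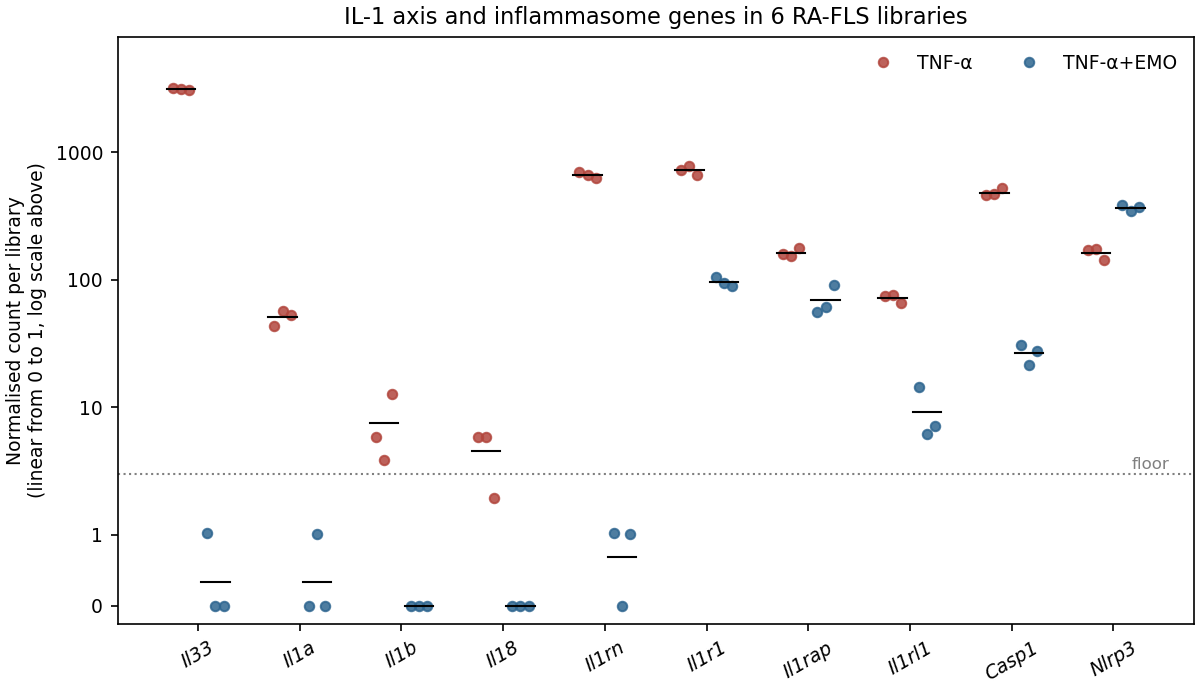
Normalised counts of the 10 genes in each of the 6 libraries (vertical axis, linear from 0 to 1 and logarithmic above; points are libraries, black bars are group means of 3). Il33 averages 3132 in the 3 TNF-α libraries and holds at most 1 count with EMO, and Nlrp3 alone is higher in all 3 TNF-α+EMO libraries.

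Il33, which encodes the alarmin IL-33, was the most abundant of the 10 mRNAs under TNF-α. The gene lies on chromosome 1 from 248132090 to 248147029 (plus strand, deposited coordinates, build Rnor_6.0 in the submitters' processing notes). Il33 had 3245, 3220 and 3154 counts with TNF-α and 1, 0 and 0 with EMO. The TNF-α libraries lay close together, with a coefficient of variation of 1.78% where counting alone gives 1.77%. Where no library of a group exceeded 3 counts, that group was treated as being at the floor, and the fold was bounded from below by putting 3 counts in each of its libraries. On this bound Il33 fell at least 1019-fold (adjusted p = 1.9e-12 by edgeR, n = 3 libraries a group).

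Il1a, which encodes the IL-1α that stressed cells release, was far less abundant than Il33 and also ended at the floor. Its counts were 44, 58 and 54 with TNF-α and 0, 1 and 0 with EMO, at least 16.5-fold lower (chromosome 3, 121825412 to 121836086, minus strand, adjusted p = 9.8e-07). Il1b, its neighbour on the same strand (121876263 to 121882726), encodes the IL-1β that macrophages secrete in quantity. It had 6, 4 and 13 counts with TNF-α and 0 in each TNF-α+EMO library, where a count of 0 allows up to 3 counts, or 0.169 to 0.175 CPM. The TNF-α mean was 2.43 times the floor, which is no lower limit of the fold, since the 3 TNF-α libraries spread by 61.4% of their mean. Il18 (chromosome 8, 54993859 to 55016299, plus strand) had 6, 6 and 2 counts with TNF-α and 0 in each library with EMO. Its TNF-α mean was 1.48 times the floor, which is no lower limit either, since those libraries spread by 49.6% of their mean. Il18 is overlapped on the opposite strand by Bco2, which had up to 12 counts, and since the strand setting of the counting is not given in the sources used here, reads of the pair cannot be told apart. Both Il1b and Il18 became DEGs when the filter on low counts was dropped (adjusted p = 0.0011 and 0.0068).

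Il1rn, the gene of the receptor antagonist, fell as Il1a did. Its counts were 717, 675 and 642 with TNF-α and 1, 0 and 1 with EMO (chromosome 3, 1452644 to 1468614, plus strand). This amounts to a drop of at least 216-fold (adjusted p = 5.5e-11). Scaled by gene length, the antagonist mRNA exceeded the sum of Il1a and Il1b mRNA in each TNF-α library, by 9.04, 6.83 and 6.08 times (7.31 ± 1.54, SD, n = 3). In 2 of the 3 TNF-α+EMO libraries both ligands were at 0, so no such ratio exists there and the ratio was not compared between the groups.

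The stretch of 250 bases before the annotated start was read for all 10 genes from RefSeq (build GRCr8, another build than that of the counts), because these genes moved together except Nlrp3. Il33 and Il1rap have 2 listed starts each, which gives 12 windows. Il33, Il1a and Il1rn are shown as tested genes that ended at the floor, Casp1 as one that fell to a measurable level, and Nlrp3 as the one that rose. Capitals mark the letters that matched any of 5 patterns. An NF-κB type (GGG, any 2 bases, then TTTCC), an AP-1 type (TGA, any 1 base, then TCA), a C/EBP type (TT, any 2 bases, then GCAAT) and an interferon response type (TTTC, any 2 bases, then TTTC) were sought on either strand, and the TATA box (TATAAA) on the strand of the gene.
Il33, first start (chr1:237115323-237115572, plus strand): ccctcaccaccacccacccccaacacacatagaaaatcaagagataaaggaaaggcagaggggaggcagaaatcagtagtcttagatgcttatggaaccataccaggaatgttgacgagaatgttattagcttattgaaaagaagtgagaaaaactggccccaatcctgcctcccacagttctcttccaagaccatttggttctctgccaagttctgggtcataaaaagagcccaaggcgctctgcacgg
Il33, second start (chr1:237134696-237134945, plus strand): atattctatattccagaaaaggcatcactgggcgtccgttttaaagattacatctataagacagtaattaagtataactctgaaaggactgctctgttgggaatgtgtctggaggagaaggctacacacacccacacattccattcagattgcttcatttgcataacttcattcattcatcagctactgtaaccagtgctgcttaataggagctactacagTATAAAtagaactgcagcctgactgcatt
Il1a (chr3:136990018-136990267, minus strand): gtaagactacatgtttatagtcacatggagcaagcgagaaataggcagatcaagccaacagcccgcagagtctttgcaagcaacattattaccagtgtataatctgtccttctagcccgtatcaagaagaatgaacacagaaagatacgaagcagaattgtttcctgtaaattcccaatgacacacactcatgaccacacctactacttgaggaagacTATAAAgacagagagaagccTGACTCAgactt
Il1rn (chr3:27520072-27520321, plus strand): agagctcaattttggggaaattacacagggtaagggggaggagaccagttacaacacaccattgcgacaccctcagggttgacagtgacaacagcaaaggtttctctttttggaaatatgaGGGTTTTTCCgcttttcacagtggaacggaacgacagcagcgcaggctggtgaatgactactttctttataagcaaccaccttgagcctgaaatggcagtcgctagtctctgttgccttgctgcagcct
Casp1 (chr8:10872580-10872829, plus strand): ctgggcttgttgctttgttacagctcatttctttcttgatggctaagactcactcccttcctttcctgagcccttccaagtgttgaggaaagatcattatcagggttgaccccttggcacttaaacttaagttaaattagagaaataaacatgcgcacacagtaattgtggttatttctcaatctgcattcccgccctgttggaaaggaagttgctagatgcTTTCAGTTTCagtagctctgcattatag
Nlrp3 (chr10:44827848-44828097, plus strand): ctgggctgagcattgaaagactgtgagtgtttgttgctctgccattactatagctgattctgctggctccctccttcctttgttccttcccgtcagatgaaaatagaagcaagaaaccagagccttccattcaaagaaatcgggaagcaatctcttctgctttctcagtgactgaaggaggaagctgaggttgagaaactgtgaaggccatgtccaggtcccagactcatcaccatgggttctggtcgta

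A total of 7 matches were found in 6 of the 10 genes, and none overlapped another. The window of Il1rn held GGGTTTTTCC from 129 to 120 bases before the start, a pattern that 1.30% of the 33469 RefSeq windows of this length hold. The window of Il1a held TGACTCA from 12 to 6 bases before the start (6.34% of windows) and TATAAA from 32 to 27 bases before it (8.06%). TATAAA also lay 29 to 24 bases before the second start of Il33 and 60 to 55 bases before that of Il1b. Casp1 held TTTCAGTTTC 28 to 19 bases before its start, and Il1rap held GAAAAAGAAA, the same pattern on the other strand, 61 to 52 bases before its first start (3.41% of windows). The windows of Nlrp3, Il1r1, Il1rl1 and Il18 held none of the 5 patterns. These are matches of letters and do not show that a factor binds.

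The genes of all 3 receptor chains fell and stayed measurable. Il1r1 (chromosome 9, 46962288 to 47036670, plus strand) had 736, 802 and 677 counts with TNF-α and 101, 92 and 88 with EMO. Every TNF-α library was above every TNF-α+EMO library, and the normalised count fell from 721 ± 61.3 to 96.0 ± 7.44 (SD, n = 3), a log2 FC of -2.91 (SE 0.11, adjusted p = 9.7e-10). Il1rap (chromosome 11, 77463954 to 77593207, minus strand) had 162, 156 and 182 counts with TNF-α and 54, 60 and 90 with EMO. Its log2 fold change was -1.22 (SE 0.21, adjusted p = 2.5e-04), the smallest among the 7 lower genes that were tested. The third TNF-α+EMO replicate stood above the other two, and the coefficient of variation in that group was 27.8% where counting alone gives 12.1%. Il1rl1 (chromosome 9, 47134034 to 47182170, plus strand), which encodes both the membrane and the soluble form of ST2, had 76, 78 and 68 counts with TNF-α and 14, 6 and 7 with EMO, a log2 FC of -2.95 (SE 0.34, adjusted p = 1.0e-05). Counts per gene do not part the forms of ST2 or of the accessory protein.

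Within each library, the length-scaled ratio of Il1r1 to Il1rap was 3.90, 4.42 and 3.20 with TNF-α and 1.61, 1.32 and 0.840 with EMO. The ratio, which needs no normalisation between libraries and was chosen after the values were seen, was 3.14-fold lower with EMO (log2 difference -1.65, or -1.39 without the third TNF-α+EMO replicate). The groups did not overlap, and the two-sided exact permutation test gave p = 0.10, the smallest that 3 libraries against 3 allow.

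Caspase-1 and its sensor moved in opposite directions. Casp1, the protease that matures IL-1β and IL-18, had 466, 479 and 534 counts with TNF-α and 30, 21 and 27 with EMO (chromosome 8, 2604962 to 2614631, plus strand). The normalised count fell from 481 ± 33.9 to 26.6 ± 4.79 (SD, n = 3), a log2 FC of -4.17 (SE 0.16, adjusted p = 8.8e-10). Nlrp3, the sensor that nucleates the complex, was the only one of the 10 genes that rose. It had 174, 177 and 147 counts with TNF-α and 370, 337 and 364 with EMO (chromosome 10, 45893018 to 45918254, plus strand), and the normalised count went from 162 ± 16.4 to 366 ± 18.9. All 3 TNF-α+EMO libraries were above all 3 TNF-α libraries, with a log2 FC of 1.17 (SE 0.12, adjusted p = 3.6e-06).

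**Figure D2:**
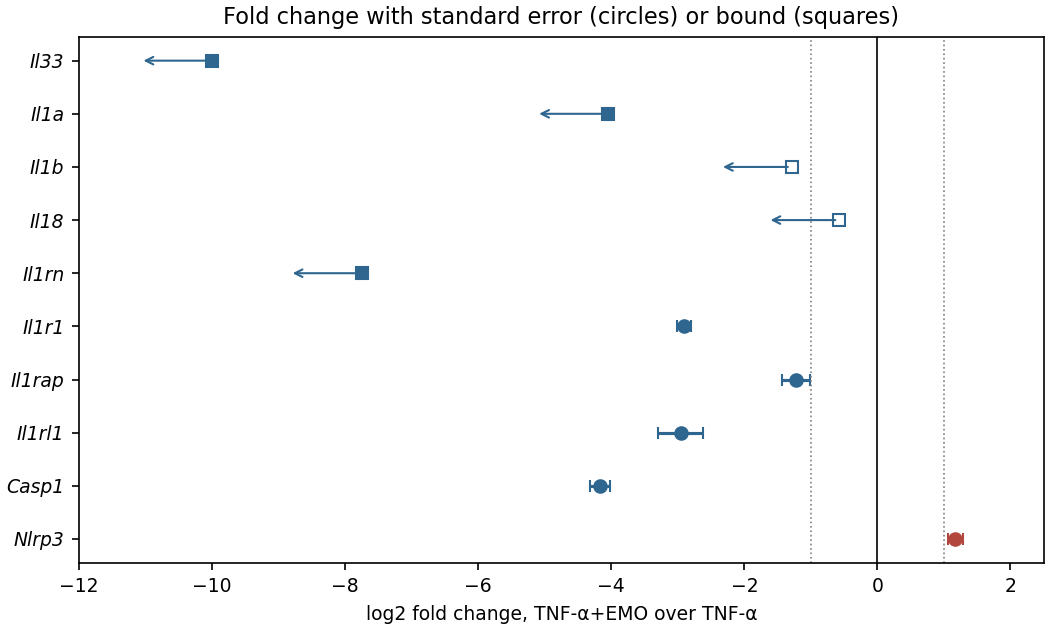
The log2 FC of TNF-α+EMO over TNF-α for the 10 genes (horizontal axis). Circles show the fitted value with its standard error, squares with arrows show the bound for genes at the floor with EMO, and dotted lines mark -1 and 1. Open squares are the untested Il1b and Il18, whose TNF-α means against the floor are no lower limits, since their TNF-α libraries spread widely. Nlrp3, at 1.17, is the only point to the right of 0.

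The order of the 10 mRNAs was rearranged. As normalised counts per kilobase of gene length, the levels with TNF-α ran from Il33 (1280.4 ± 22.8, SD, n = 3) over Il1rn (325 ± 19.2), Casp1 (314 ± 22.2), Il1r1 (183 ± 15.5), Il1rap (47.9 ± 3.84), Il1a (39.9 ± 5.41), Nlrp3 (39.1 ± 3.96) and Il1rl1 (20.4 ± 1.49) to Il1b (5.36 ± 3.29) and Il18 (4.53 ± 2.25). The libraries of Il1rn and Casp1 overlapped in this order, as did those of Il1a and Nlrp3 and those of Il1b and Il18. With EMO, Nlrp3 came first (88.2 ± 4.56), followed by Il1r1 (24.3 ± 1.88), Il1rap (20.5 ± 5.70) and Casp1 (17.4 ± 3.13), whose neighbours overlapped, then by Il1rl1 (2.60 ± 1.28), with the other 5 at the floor. The summed length-scaled level of the 10 genes was 2259 ± 28.2 with TNF-α and 154 ± 10.5 with EMO. Il33 made up 56.7% ± 0.35 of this sum with TNF-α, and Nlrp3 made up 57.4% ± 1.34 of it with EMO (SD, n = 3 each).

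The other ligands and receptors of the IL-1 family were taken from a list of 13 genes, of which 7 were tested, 5 were lower, 1 was higher and 1 was not a DEG (85.7% DEGs, against 47.3% of all genes tested), with a median log2 FC of -1.65 against -0.01 over all genes tested. Il18bp, the secreted protein that neutralises IL-18, had 342, 314 and 388 counts with TNF-α and 56, 63 and 57 with EMO, a log2 FC of -2.50 (SE 0.14, adjusted p = 2.8e-08). Il18rap, the accessory chain of the IL-18 receptor, fell from 701 ± 31.0 to 224 ± 24.6 normalised counts (log2 FC -1.65, SE 0.10). Il1r2, the decoy receptor of IL-1, had 0 counts in every library. The remaining genes of this list were named after their values were seen. Il18r1, the ligand-binding chain for IL-18, had 28, 24 and 33 counts with TNF-α and 1, 1 and 0 with EMO, at least 9.0-fold lower. Sigirr, an inhibitory receptor of the family, had 46, 60 and 58 counts with TNF-α and 3, 4 and 8 with EMO (log2 FC -3.35, SE 0.38). Il18r1, Sigirr and Il36b passed the filter through the TNF-α libraries alone, and Il36g through the TNF-α+EMO libraries alone. The filter thus favoured a difference in these genes, and the share of DEGs in the list was not tested.

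Several of these genes are neighbours in the genome, and neighbours did not always move alike. A stretch of 418 kilobases on chromosome 9 (46840992 to 47258503) holds Il1r2, Il1r1, Il1rl2, Il1rl1, Il18r1 and Il18rap in this order among 9 listed genes. Of the 5 tested there, 4 were lower, and Il1rl2, the IL-36 receptor chain that lies between Il1r1 and Il1rl1, had 9, 7 and 17 counts with TNF-α and 18, 18 and 15 with EMO. Its log2 FC of 0.69 (SE 0.41) did not pass the test (adjusted p = 0.14), although it did without the third TNF-α replicate (log2 FC 1.14, adjusted p = 0.033). On chromosome 3, Il1rn shares 183 kilobases (1285664 to 1468614) with the IL-36 genes. There Il36g, which encodes an IL-36 agonist, had 3, 2 and 2 counts with TNF-α and 12, 16 and 14 with EMO. The mean with EMO was 4.89 times the floor, a value that leaves out the spread of these low counts. The fitted log2 FC was 2.59 (SE 0.49, adjusted p = 4.9e-04). Il36b, another agonist, had 14, 14 and 15 counts with TNF-α and 8, 5 and 6 with EMO, with a log2 FC of -1.09 (adjusted p = 0.026) that was not past the threshold with DESeq2 (adjusted p = 0.11), without the filter on low counts (adjusted p = 0.063), or when any library other than the first TNF-α+EMO replicate was left out (adjusted p from 0.056 to 0.071).

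The caspases next to Casp1 rose where Casp1 fell. Casp4, which encodes the caspase that senses intracellular lipopolysaccharide, follows Casp1 on chromosome 8 (2635851 to 2651652). It had 805, 835 and 771 counts with TNF-α and 3421, 3259 and 2864 with EMO, a log2 FC of 2.05 (SE 0.08, adjusted p = 1.4e-09). Casp12 (2659865 to 2686160), a caspase linked to stress of the endoplasmic reticulum, rose from 241 ± 23.5 to 755 ± 69.9 normalised counts (log2 FC 1.65, SE 0.11). The length-scaled ratio of Casp1 to Casp4 was 0.462, 0.458 and 0.553 with TNF-α and 0.0070, 0.0051 and 0.0075 with EMO, 75.6-fold lower, with the smallest p an exact permutation test allows here (p = 0.10, two-sided, ratio chosen after the values were seen). Both genes separated the groups and in opposite directions, so this ratio had to separate them too, and its p was fixed beforehand. How reads that match more than 1 of these related caspases were counted is not given in the sources used here.

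**Figure D3:**
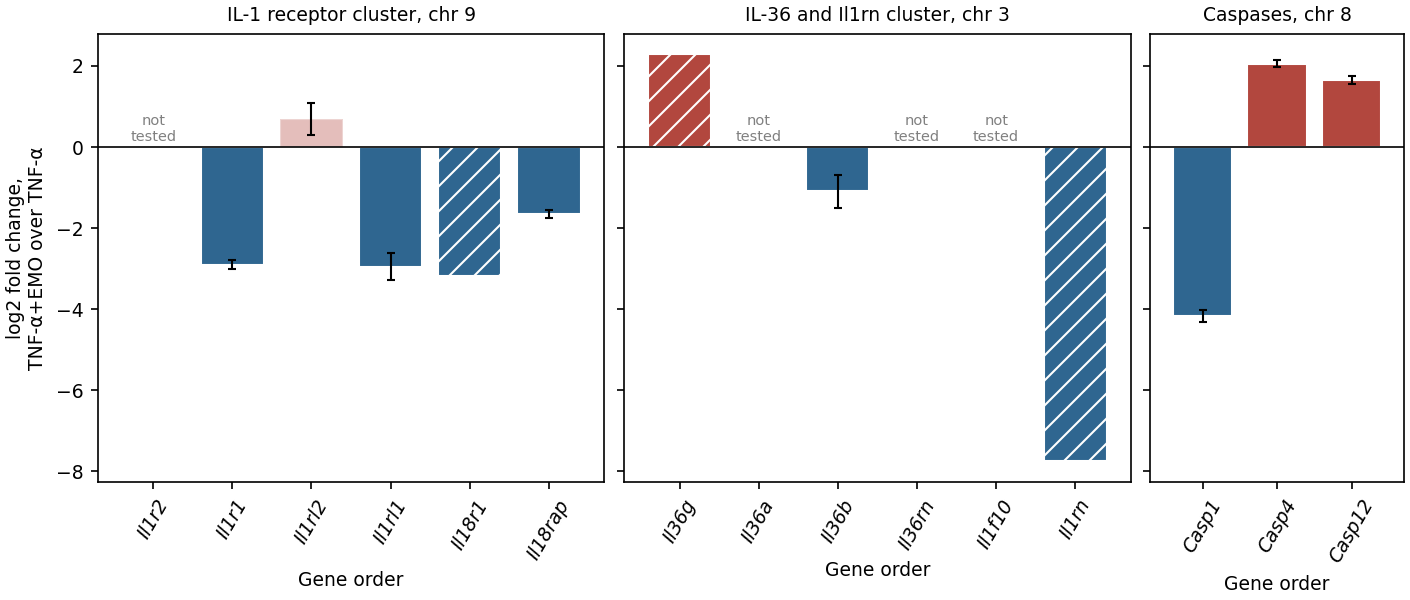
The log2 FC of TNF-α+EMO over TNF-α for IL-1 family and caspase genes in their order along 3 chromosome stretches (vertical axis; bars with standard errors, hatched bars are bounds against the floor, the pale bar did not pass the test). Casp1, at -4.17, stands next to Casp4 at 2.05 and Casp12 at 1.65.

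Of 18 listed genes of the signalling chain inside the cell, 17 were tested, 1 was lower, 3 were higher and 13 were not DEGs. DEGs thus made up 23.5% of the list against 47.3% of all genes tested, and 12 of the 17 passed the adjusted p alone, against 80.9% of all genes. The median log2 FC was 0.47. Myd88, the adaptor that every signalling IL-1 receptor uses, had 688, 671 and 760 counts with TNF-α and 739, 728 and 832 with EMO, a log2 FC of 0.19 (SE 0.09, adjusted p = 0.066). Irak1, a kinase recruited by Myd88, had a log2 FC of -0.22 (SE 0.06), and Traf6, the ubiquitin ligase that follows it, one of 0.58 (SE 0.10), and neither was a DEG. Irak4, the first kinase of the chain, rose from 284 ± 19.5 to 706 ± 8.07 normalised counts (log2 FC 1.31, SE 0.09).

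The 2 genes of this list that rose furthest encode brakes of the pathway. Irak3, the inhibitory kinase IRAK-M, had 1414, 1449 and 1379 counts with TNF-α and 5881, 5724 and 5037 with EMO (log2 FC 2.04, SE 0.07, adjusted p = 7.1e-10). Tollip, which restrains Irak1 and sorts IL-1 receptors for degradation, had 3913, 3939 and 3882 counts with TNF-α and 13798, 13777 and 14106 with EMO (log2 FC 1.90, SE 0.05, adjusted p = 9.8e-11). Peli2, a ubiquitin ligase of the IRAK complex, fell by 1.32 on the log2 scale (SE 0.14). With library totals in place of TMM, or without the third TNF-α+EMO replicate, Irak2 and Peli1 also passed, so that 3 genes of this list were lower in place of 1.

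Of the other inflammasome and pyroptosis genes, 31 were listed, 28 had a row in the table and 17 were tested, of which 6 were lower, 3 were higher and 8 were not DEGs (median log2 fold change -0.73). The share of DEGs, 52.9%, was near the 47.3% of all genes tested. Pycard, the ASC adaptor that joins NLRP3 to caspase-1, had 188, 169 and 178 counts with TNF-α and 0, 3 and 0 with EMO, at least 56.7-fold lower (adjusted p = 2.5e-07). It passed the filter through the TNF-α libraries alone. Gsdmd, the pore protein that caspase-1 and caspase-4 open, had 3167, 3071 and 3336 counts with TNF-α and 1049, 1183 and 1235 with EMO (log2 FC -1.40, SE 0.07). Nlrp1a, a sensor of another inflammasome, fell from 575 ± 46.1 to 87.7 ± 10.8 normalised counts, and Txnip, a thioredoxin-binding protein known to engage NLRP3, fell from 2746 ± 74.4 to 401 ± 23.7. Nek7, the kinase that NLRP3 needs to assemble, had a log2 FC of -0.51 (SE 0.08) and was not a DEG. Ninj1, the membrane protein that ruptures dying cells, had 3609, 3478 and 3673 counts with TNF-α and 16811, 17739 and 17609 with EMO (log2 FC 2.35, SE 0.06, adjusted p = 3.6e-11). The sensors Nlrc4, Nlrp6, Nlrp9, Nlrp10 and Nlrp12 had at most 4 counts in any library.

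Genes that IL-1 is known to induce in fibroblasts, a list that overlaps the response to TNF-α itself, were mostly lower. Of 27 tested, 19 were lower, 3 were higher and 5 were not DEGs (81.5% DEGs, against 47.3% of all genes tested), with a median log2 FC of -4.36, or -2.93 where a bound replaces the fitted value of each floor gene. C3 and Ccl20 were at least 5814-fold and 463-fold lower, and Vcam1 and Ccl7 had log2 FCs of -8.02 (SE 0.08) and -7.80 (SE 0.11). In the opposite direction, Mmp13, a collagenase, rose from 187 ± 15.6 to 798 ± 99.2 normalised counts (log2 FC 2.09, SE 0.11), Lif, a cytokine of the IL-6 family, by 1.89 (SE 0.10) and Il6 by 1.23 (SE 0.20). C3, Ccl20 and some other genes of this list passed the filter through the TNF-α libraries alone. The filter thus favoured a lower value with EMO in them, and the share of DEGs in the list was not tested.

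**Figure D4:**
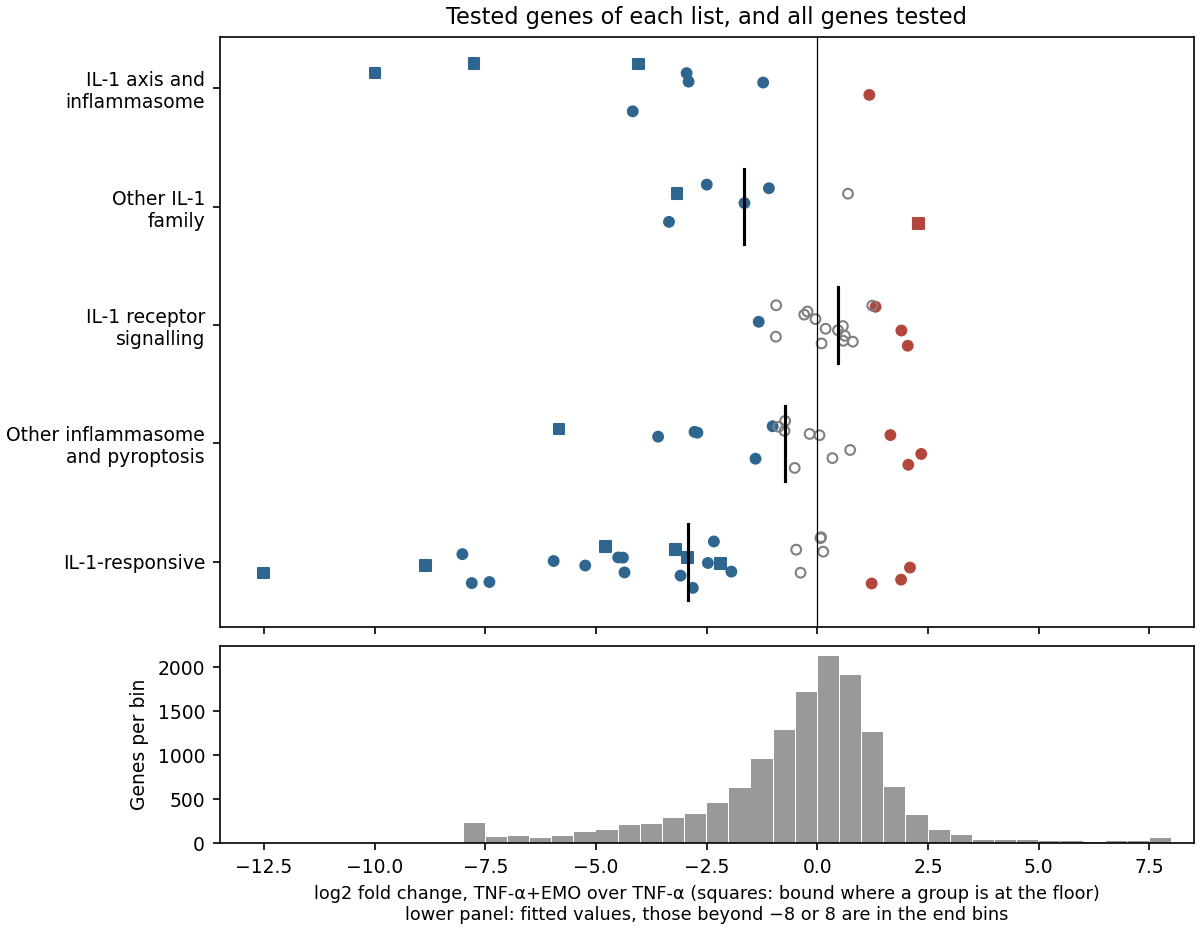
Upper panel, the log2 FC of each tested gene of the 5 lists (points; filled where a DEG, open where not, squares for bounds, black bars for the medians of the 4 comparison lists). Lower panel, the number of genes per bin of 0.5 over all 13614 tested. The signalling list is centred at 0.47, whereas the IL-1-responsive list is centred at -2.93 with bounds.

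Markers of the cells moved with these results, and their part in them was not tested. Of 14 fibroblast markers, 10 were tested, 8 were lower and 1 was higher with EMO, and their summed normalised count was 210839 to 231340 with TNF-α and 35297 to 38047 with EMO. Col1a1 and Pdgfrb had log2 FCs of -4.91 and -4.45, while the synovial markers Thy1, Pdpn and Prg4 had at most 7 counts in any library of either group. Of 15 macrophage and monocyte markers, 3 were tested, with Cd14 lower, Itgam higher and Cd68 not a DEG, and the sum was 1211 to 1329 with TNF-α and 751 to 826 with EMO. Itgam had only 1, 0 and 0 counts with TNF-α and 12, 10 and 14 with EMO, and passed the filter through the TNF-α+EMO libraries alone. Ptprc, which marks all leukocytes, had at most 1 count in any library, and Cd3e, of T cells, had at most 3. The 7 T and B cell markers summed to at most 6.87 in any library. The 11 neutrophil and mast cell markers summed to 51.6 to 75.1 with TNF-α and 23.5 to 44.8 with EMO. Nearly all of that was Camp, which was not a DEG (log2 FC -0.92). The endothelial markers summed to 69.2 to 76.5 with TNF-α, most of it Vwf, and 13.2 to 21.7 with EMO. The epithelial markers summed to 9942 to 10808 with TNF-α and 1984 to 2333 with EMO, nearly all of it Krt8. Epcam was at 0 in every library. Of the 2 epithelial markers tested, Krt8 was lower (log2 FC -2.28) and Cldn4 was higher, and both were DEGs. Cldn4 was undetected under TNF-α, while EMO libraries held 16, 17 and 28 reads of it, so the filter favoured a higher value there.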

How the data were processed

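Poly(A)-selected paired-end libraries of 6 rat RA-FLS samples were analysed, grouped by their labels. Per the submitters' processing notes, FastQC, Trimmomatic, HISAT2 and the build Rnor_6.0 were used. The counting program and strand setting are not given in the sources used here. The authors deposited raw counts per gene (34156 genes), which were used for every result, and FPKM values, which were not used. The authors also deposited their own comparison (a group mean score, the log2 ratio of the groups, its p-value raw and adjusted), which was left aside.

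TMM-normalised counts of the 13614 genes that reached 10 counts in 3 or more libraries went into the robust quasi-likelihood fit of edgeR 4.0.16 (R 4.3.3), adjusted by Benjamini-Hochberg. The standard error is the log2 fold change divided by the square root of F. Normalised counts are scaled to the mean effective library size. Bounds set the mean of the other group against 3 counts per library and leave out the spread of that group. They account only for counting error, because reads lacking molecular identifiers can be PCR copies. Alternatives were DESeq2 1.42.0, other scalings, filters and thresholds, the replicate block and leaving out each library. No library was a copy of another.

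The genes and lists were chosen with earlier results of these data known. The other genes named are, from each list, up to 4 lower and up to 4 higher DEGs with a mean of at least 50 normalised counts and no overlap between the groups, and a fixed set of adaptors and markers. Ube2v1, Nlrp1b, Naip5, Naip6, Saa3, Col1a2 and Pecam1 were not analysed here. Promoter windows came from RefSeq (GRCr8).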

Additional observations from a re-analysis of the deposited data

How the results depend on the processing

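Each of the 8 tested genes of the IL-1 axis and inflammasome kept its direction and its call in all 12 refits, with log2 FCs of -1.48 to -1.09 for Il1rap and 1.06 to 1.22 for Nlrp3. At an absolute log2 fold change over 2, 6 of the 8 passed, without Il1rap and Nlrp3, and 3064 of all 13614 tested genes did. Adding the replicate number as a block left 8 called. The numbers do not pair the samples (correlations of same-numbered deviations from -0.0068 to 0.068), and the block ended the call of Il36b (adjusted p = 0.074) and of no other gene named. Of the signalling list, 4 genes were called in the comparison reported, 1 at an absolute log2 fold change over 2 and 12 at an adjusted p under 0.05 alone. Of the other inflammasome genes, 9 were called, and 15 at the adjusted p alone. Each of these 2 lists had 17 tested genes, and 80.9% of all tested genes passed the adjusted p alone. The ratio of Il1rn to its ligands was 7.31, and 11.6 without length scaling. Scaling by library totals moved the median log2 FC of all genes to -0.12 from -0.01, and under it Tab1 (-0.019), Cast (-0.064), Lcn2 (-0.042) and Nfkb2 (-0.031) changed sign, none of them a DEG. Cast also did without the first TNF-α+EMO replicate, with a range of -0.044 to 0.131 when each library was left out. Card6 (log2 fold change -1.01) missed the fold threshold without the first or second TNF-α or the second or the third TNF-α+EMO replicate (-0.996 to -0.919). Map3k7 (1.24, adjusted p = 0.070) was called with DESeq2 and without the first TNF-α+EMO replicate (adjusted p = 0.025 in both). Its rise rested on the second TNF-α+EMO replicate, with 29, 121 and 33 counts with EMO and 21, 25 and 35 with TNF-α. Without that replicate its log2 fold change was 0.26 (adjusted p = 0.49). Without the third TNF-α+EMO replicate, which stood apart from its group, 6 signalling genes and 8 of the other inflammasome genes were called.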

Other observations

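Some other genes that take part in the processing and release of IL-1 cytokines, named after their values were seen, had the following values. Capn1 and Capn2, the calpains that cut the IL-1α precursor, had log2 FCs of -0.17 (SE 0.06) and -0.88 (SE 0.06), and Cast, which encodes the calpain inhibitor, had one of 0.05 (SE 0.08). None of the 3 was a DEG. P2rx7, the ATP receptor that triggers the NLRP3 inflammasome in macrophages, had at most 1 count in any library, and the channel gene Panx1 had at most 6. P2rx4, a related ATP receptor, had 1365, 1288 and 1176 counts with TNF-α and 685, 717 and 782 with EMO, a log2 FC of -0.74 (SE 0.08), under the fold threshold.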
